A study of Homo sapiens with 12 samples.

Results

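The genes described are the 4048 genes, of 60107 gene identifiers in the count table, that had at least 10 counts in every one of the 12 libraries, so that the effect of carmofur could be read in each gene in both cell lines, labeled U251P and U251T. They were chosen by their lowest count alone. That choice keeps out a gene that was at low counts in any library, whichever treatment it came from. For 3073 of the 4048 genes the lowest count was in the third U251T carmofur library, the shallowest one. A gene that carmofur lowered in U251T could thus miss the limit more easily than one that it raised. How far this shaped the counts by direction and the list medians was not tested. At the limit, 174 genes had a lowest count of 10, among them AAK1, and 173 genes missed it with a lowest count of 9, among them ABHD5. By annotation, 4010 of the 4048 genes were protein coding.

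U251 is an established human glioblastoma line; the labels do not say what the letters P and T stand for. Cells were serum starved for 16 h and then kept for 24 h in full medium with growth factors and either the solvent DMSO (vehicle) or carmofur, with 3 libraries in each of the 4 groups of line and treatment. The dose is not in the labels, though the study's own account for U251 cells states one. That account has carmofur present during the starvation as well, and serum in the medium of the final 24 h. The study asked which transcripts change with carmofur in relation to cell migration, and the interaction of line and treatment asks whether the change was the same in both lines. The study describes biological triplicates for its experiments in general. The labels do not say that the libraries came from separate cultures, so that p-values measure the spread between these libraries.

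Carmofur is a drug that inhibits acid ceramidase, the lysosomal enzyme that splits ceramide, and that can also release 5-fluorouracil, which blocks thymidylate synthase and enters RNA and DNA. Cells that stop dividing lower the transcripts of mitosis, many of which carry CCAAT boxes and a cell cycle gene homology region (CHR) in their promoters. The transcription factor p53 raises CDKN1A and other genes after DNA damage, and the transcription factor ATF4 raises amino acid transport, tRNA charging and stress genes when amino acids are short or the endoplasmic reticulum is under stress.

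The libraries labeled U251T stood apart from those labeled U251P in both treatments. Total counts were 3295045 to 6350873 in U251P and 383633 to 2817379 in U251T, and within U251T the carmofur libraries held 383633 to 1078340 counts against 566061 to 2817379 in vehicle. Pseudogenes took 10.9% to 12.4% of the counts in U251T and 0.272% to 0.307% in U251P, while the mitochondrial ribosomal RNA genes took 0.336% to 0.717% and 13.7% to 19.0%. Marker levels are given as counts scaled to the plain library total (CPM of the total), and all other CPM below are scaled with TMM factors. The 8 glioma or astroglia markers differed between the lines in both directions. In U251T, SOX2 was at most at 1.03 CPM of the total against 97.7 to 161 in U251P, NES at most at 2.61 against 376 to 459, EGFR at 1.06 to 13 against 64.6 to 90.5, and FABP7 at most at 1.77 against 4.94 to 16.4. S100B was at 0 in U251T and also low in U251P, at 0.945 to 3.38. VIM was higher in U251T, at 7050 to 13500 against 2520 to 3250, and so was GFAP, at 20.9 to 83 against at most 0.303, while CD44 was at 554 to 805 against 917 to 1100. Summed over the 8 markers the level was 11700 to 14200 in U251T vehicle, 7810 to 9880 in U251T with carmofur, and 4020 to 4980 and 4420 to 4630 in U251P. Among genes that most cells use, GAPDH was at 138 to 255 in U251T against 2720 to 3750 in U251P and B2M at 0.769 to 15.6 against 1540 to 1940, while LDHA was at 371 to 596 against 4.7 to 7.89. The fibroblast collagen gene COL1A1 was at 1280 to 1930 in U251T against 4.34 to 7.9. No gene of a list for antigen presentation by MHC class I was among the 4048 genes. The markers thus did not settle what the U251T libraries hold: some glioma markers were high there and others at or near 0. The ranges of the lines did not overlap for the genes named here, for pseudogenes or for mitochondrial ribosomal RNA, although the labels name both as U251, and the source of the reads labeled U251T was not tested. The U251T values below are those of the libraries so labeled, counted on human gene identifiers.

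**Figure D1:**
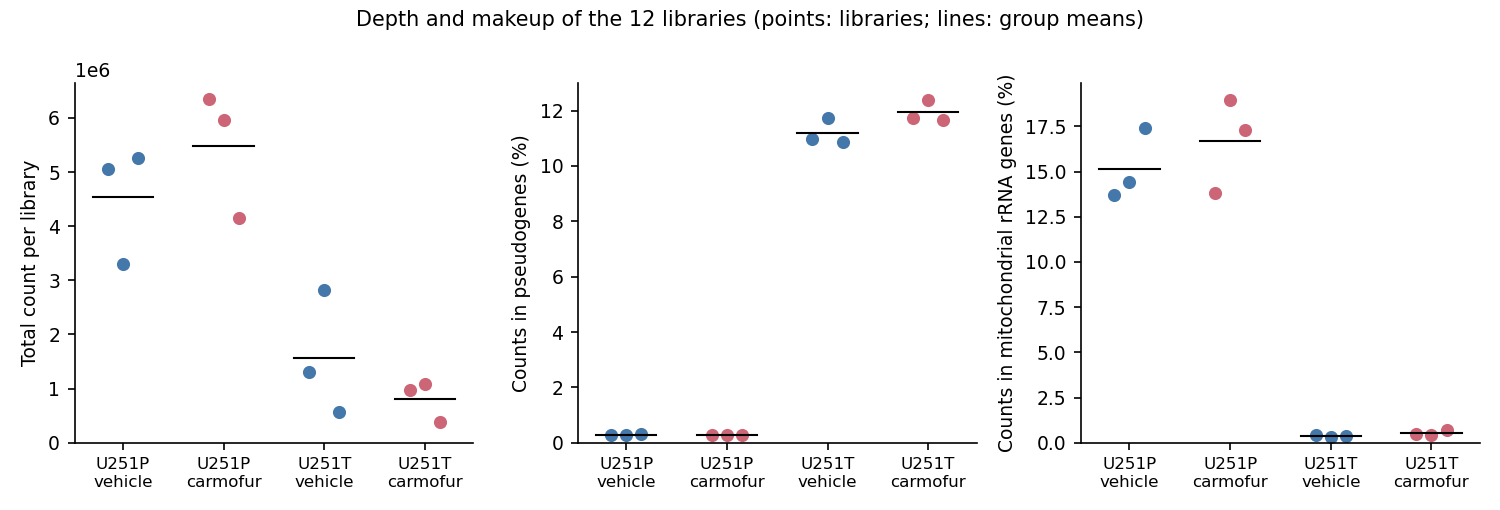
Total counts, the percent of counts in pseudogenes and the percent in the mitochondrial ribosomal RNA genes for each of the 12 libraries, with points for libraries and lines for group means. U251T libraries sit at 10.9% to 12.4% in pseudogenes, above every U251P library, and below every U251P library in total count and in mitochondrial ribosomal RNA.

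The promoters of 4 mitotic genes are shown first because mitosis was the functional list with the largest median difference between the lines. The 250 bases before the annotated start were taken from the RefSeq promoter table for GRCh38.p14, which held 3374 of the 4048 genes. Capitals mark the CCAAT box (CCAAT or ATTGG) and the CHR, written TTTGAA on the plus strand and TTCAAA where it lies on the minus strand, with TTCGAA as a second form that reads the same on both. The HMMR stretch lies at chr5:163460382-163460631, that of CDC20 at chr1:43358731-43358980, of PLK1 at chr16:23678639-23678888 and of BUB1B at chr15:40160819-40161068, all on the plus strand. The starts here are those of RefSeq and differ from GENCODE 29, used for gene positions below. In GENCODE 29 HMMR begins at 163460203 and PLK1 at 23677656, so that their stretches lie inside those genes. The stretches of CDC20 and BUB1B reach into theirs.
HMMR: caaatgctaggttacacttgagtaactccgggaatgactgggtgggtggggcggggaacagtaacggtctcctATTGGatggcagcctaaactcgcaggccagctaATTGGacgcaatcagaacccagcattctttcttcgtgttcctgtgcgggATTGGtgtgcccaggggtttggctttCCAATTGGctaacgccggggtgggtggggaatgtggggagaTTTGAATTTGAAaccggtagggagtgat
CDC20: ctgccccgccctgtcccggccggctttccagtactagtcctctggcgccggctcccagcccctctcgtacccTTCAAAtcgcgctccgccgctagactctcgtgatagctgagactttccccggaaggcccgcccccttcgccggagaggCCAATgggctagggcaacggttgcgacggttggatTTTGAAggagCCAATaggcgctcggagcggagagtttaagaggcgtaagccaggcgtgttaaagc
PLK1: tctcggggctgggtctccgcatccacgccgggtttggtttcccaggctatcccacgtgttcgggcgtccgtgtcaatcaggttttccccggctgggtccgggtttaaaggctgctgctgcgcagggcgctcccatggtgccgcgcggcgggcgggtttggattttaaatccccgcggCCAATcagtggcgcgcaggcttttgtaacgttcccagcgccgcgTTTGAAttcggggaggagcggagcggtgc
BUB1B: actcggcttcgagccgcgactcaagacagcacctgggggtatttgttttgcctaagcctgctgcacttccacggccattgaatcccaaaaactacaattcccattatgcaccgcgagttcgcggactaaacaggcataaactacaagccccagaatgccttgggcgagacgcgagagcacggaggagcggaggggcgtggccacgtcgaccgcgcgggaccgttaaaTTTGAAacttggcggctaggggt
In PLK1 a CCAAT box began 73 bases and a CHR 29 bases before the start. In HMMR the 2 CHR copies began 28 and 22 bases before the start, with CCAAT boxes from 66 to 177 bases before it, and in BUB1B there was a CHR 23 bases before the start and no CCAAT box in this window.

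Both motifs together stood in 12 of the 30 mitotic genes with a promoter in the table (40%), against 1432 of all 27305 promoters (5.24%) and 149 of the 3374 with a promoter among the 4048 genes (4.42%). Among genes with a called difference between the lines, both motifs stood in 26 of 159 promoters (16.4%) of genes that went lower in U251T and in 4 of 137 (2.92%) of genes that went higher. The lower set holds 31 of the 34 mitotic genes, so its share is not separate from theirs. A CHR, with or without a CCAAT box, stood in 17 of the 30 mitotic promoters (56.7%) and in 14.6% of all promoters. These letter matches describe the human promoters and are not evidence that a factor bound them.

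Carmofur gave a different effect in the 2 lines for 346 of the 4048 genes (8.55%), of which 158 had the higher effect in U251T and 188 the lower one. The test was edgeR's quasi-likelihood test of the interaction, with Benjamini-Hochberg adjustment over all 13070 genes tested and a call at an adjusted p under 0.05; over all genes tested it called 4.28% (1.8% higher and 2.49% lower). In U251T alone carmofur raised 348 and lowered 410 of the 4048 genes, 758 in all (18.7%), against a background of 10% of all genes tested, 4.58% higher and 5.46% lower. In U251P it changed 0 of the 4048 genes, against a background of 0%; the smallest adjusted p was 1, DESeq2 and limma voom also called 0, and 65 genes (1.61%) had an unadjusted p under 0.05 where U251T had 1435 (35.4%). The balance of directions depended on the scaling: the differences were 217 higher and 180 lower with DESeq2's size factors in the edgeR fit, 229 and 183 with library totals, and 295 and 260 with DESeq2 itself. With the same size factors in place of TMM the U251T split turned from 348 higher and 410 lower to 495 higher and 370 lower. Same-numbered vehicle and carmofur libraries deviated from their group means more alike than others in U251T, and less evenly so in U251P. With the number as a block within each line 1282 of the 4048 genes were called in U251T and 2 in U251P.

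The size of the response showed the same contrast. The median absolute log2 fold change over the 4048 genes was 0.0848 in U251P and 0.294 in U251T, while the median standard errors were 0.170 and 0.201. An absolute log2 fold change over 0.5 was seen in 42 genes in U251P and 1093 in U251T. In 1278 genes (31.6%) the 3 carmofur libraries and the 3 vehicle libraries of U251T did not overlap, beside 20.0% of all genes tested; in U251P this was so for 326 genes (8.05%), beside 7.34%.

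The direction of the carmofur effect was the same in 2082 of the 4048 genes (51.4%), and the Pearson correlation of the log2 fold changes across genes, which are not independent replicates, was 0.0183. All 346 genes with a called difference had the larger absolute effect in U251T, and 344 of them were also called in U251T alone. In 313 of the 346 the U251P log2 fold change lay within 0.25 of 0, and in 9 it had an unadjusted p under 0.05. Most differences were thus changes in U251T beside a U251P value near 0.

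**Figure D2:**
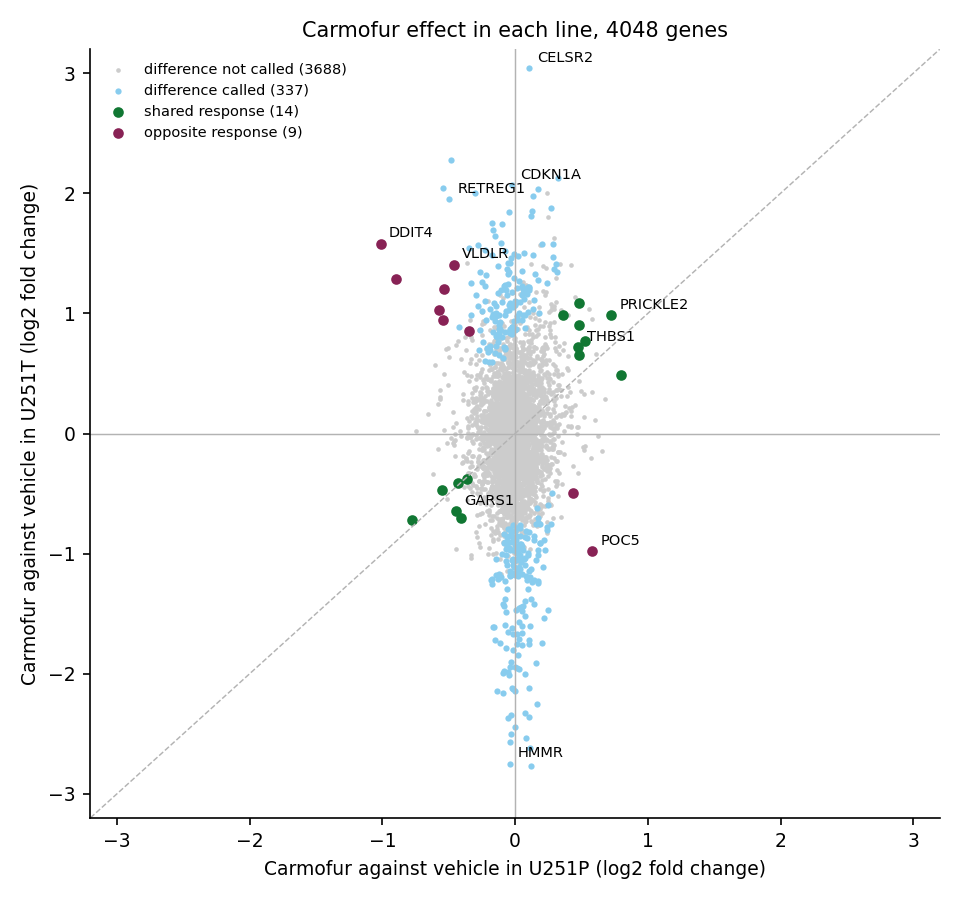
Carmofur effect in U251P (horizontal axis) and U251T (vertical axis), as log2 fold changes, for 4048 genes, colored by call, with the dashed line where both effects are equal. The called genes form a column near 0 on the U251P axis that spans from -2.77 to 3.04 on the U251T axis, with the 14 shared genes in the upper right and lower left and the 9 opposite genes in the other corners.

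Mitotic genes fell in U251T, with no called change in U251P. Of 34 mitosis and spindle genes, 34 fell in U251T and 31 had a called difference, each of them lower. Of all 4048 genes, 10.1% fell in U251T and 4.64% had a called lower difference, beside 5.46% and 2.49% of all genes tested. The median log2 fold change was -1.95 in U251T and 0.005 in U251P. The medians over the 4048 genes were -0.041 and -0.01, and over all genes tested 0.0 and 0.0. In 33 of the 34 genes the carmofur and vehicle libraries of U251T did not overlap, and in U251P in 2 of them. The U251P values ran from -0.11 to 0.17.

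HMMR, a spindle-binding hyaluronan receptor (chr5:163460203-163491945, plus strand, GENCODE 29), was at 329, 404 and 329 CPM in U251T vehicle and at 54.4, 59.5 and 39.1 CPM with carmofur. In U251P it was at 266, 246 and 238 CPM and then at 253, 241 and 235 CPM. All 3 treated U251T libraries lay far below the other 9 libraries. The fall in U251T was 6.72-fold, and the difference between the lines was -2.71 ± 0.24 (SE) on the log2 scale (adjusted p = 2.98e-09).

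CDC20, which activates the anaphase-promoting complex, stood at 264, 493 and 208 CPM in U251T vehicle and at 41.2, 57.7 and 43.4 CPM with carmofur. Its U251P libraries gave 363, 360 and 309 CPM in vehicle and 439, 346 and 335 CPM with carmofur. The U251T groups did not overlap and the U251P groups did, with a difference of -2.89 ± 0.32 (SE; adjusted p = 1.04e-07). PLK1, the kinase that drives entry into mitosis, went from 114, 233 and 114 CPM to 21.6, 32 and 21.7 CPM in U251T. Those 3 carmofur libraries held 23, 36 and 10 counts of PLK1. In U251P it stayed between 189 and 254 CPM, and the difference was -2.74.

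The spindle checkpoint kinase BUB1B fell from 258, 296 and 232 CPM to 51.6, 47 and 32.6 CPM in U251T, and its U251P values were 90.4 to 105 CPM in both treatments. CCNA2, the cyclin of S phase and G2, fell 5.92-fold in U251T, with a U251P log2 fold change of -0.04. Differences of the same kind were -2.46 for ASPM at the spindle pole, -2.42 for NUF2 and -2.07 for KNL1 at the outer kinetochore, -2.11 for the kinetochore motor CENPE, -2.32 for CENPF, and -2.31 for ECT2, which acts in cytokinesis. TOP2A, which untangles replicated DNA, was at 1670 to 2100 CPM in U251T vehicle and dropped to 413 to 579 CPM with carmofur, while U251P stayed between 1900 and 2410 CPM. The 3 mitotic genes without a called difference were BUB3, CKAP2 and ARL6IP1, named after their values were seen, which fell in U251T by 0.62, 0.55 and 0.76 on the log2 scale.

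DNA replication genes followed the mitotic ones at a smaller size. Of 21 members, 16 fell in U251T and 14 had a called lower difference, with medians of -1.11 in U251T and -0.017 in U251P. The shares that fell and that had a lower difference were 10.1% and 4.64% of the 4048 genes, and 5.46% and 2.49% of all genes tested. MCM7, a subunit of the replicative helicase, was at 49.6, 79.2 and 67 CPM in U251T vehicle and at 10.3, 16.9 and 21.7 CPM with carmofur, with overlapping groups at 192 to 236 CPM in U251P. The difference was -2.09 ± 0.31 for MCM7 (SE; adjusted p = 2.21e-05), -1.78 for the chromatin ATPase ATAD2, -1.6 for the histone chaperone NASP and -1.56 for the chromatin remodeler HELLS. On its strand 3 other annotated genes overlap MCM7, and reads at such overlaps could not be told apart. The U251T carmofur libraries held 11, 19 and 10 counts of MCM7, at or near the lower limit of 10.

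The enzymes of pyrimidine and folate metabolism, the pathway that 5-fluorouracil enters, were mixed. Of 11 members, 3 fell in U251T and 2 had a called difference, with a median of -0.161 in U251T and -0.039 in U251P. Among the 4048 genes 10.1% fell in U251T and 8.55% had a called difference, and among all genes tested 5.46% and 4.28%. Whether this list departed from those shares was not tested. DUT, which removes dUTP before it can enter DNA, fell 2.8-fold in U251T and had a difference of -1.42 (adjusted p = 0.000199), and SHMT1, which loads folate with single carbon units, had a difference of -1.95. MTHFD1 fell in U251T by 0.81 (adjusted p = 0.00402) with a difference of -0.82 that missed the threshold (adjusted p = 0.0563). The drug's 2 known targets were too low in U251T to be among the 4048 genes: ASAH1, acid ceramidase, was at 6.52 to 11.2 CPM there and at 34.3 to 49.9 CPM in U251P, and TYMS, thymidylate synthase, at 2.63 to 6.57 CPM and 257 to 350 CPM. The log2 fold change was 0.10 in U251P and 0.20 in U251T for ASAH1 and 0.06 and 0.03 for TYMS, none of them called.

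Many chromatin and splicing genes and some microtubule genes also fell in U251T, and none of them was called in U251P. Of 44 chromatin, histone and lamina genes, 27 fell in U251T and 19 had a called lower difference, with medians of -0.672 in U251T and -0.053 in U251P. These shares were 10.1% and 4.64% over the 4048 genes, and 5.46% and 2.49% over all genes tested. HMGB2, a DNA-bending protein, fell from 905, 1120 and 672 CPM to 206, 157 and 126 CPM in U251T and was at 189 to 230 CPM in every U251P library. The difference was -2.44 for HMGB2, -2.01 for the nuclear lamin LMNB1, -1.93 for the histone H2AZ1 and -1.86 for the lamina-binding protein TMPO. H2AZ1 has 6 pseudogenes named after it, so that its counts may be split among copies.

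Of 60 splicing and RNA-binding genes, 29 fell in U251T and 16 had a called lower difference, with a median of -0.51 in U251T and -0.003 in U251P. The splicing factor SRSF2 had a difference of -1.25, HNRNPA0 of -1.07, HNRNPA2B1 of -1.06 and the spliceosome core protein SNRPF of -1.36. In the 23 tubulin and microtubule genes, 6 fell and 1 rose in U251T and 4 had a called difference, all lower. These 4 were the microtubule destabilizer STMN1 at -1.57 and the tubulins TUBA1C at -1.4, TUBA1B at -1.12 and TUBB at -1.09. TUBB was at 97 to 152 CPM in U251T vehicle and at 57.7 to 69.5 CPM with carmofur, far below its 1090 to 1310 CPM in U251P. Among the 4048 genes 10.1% fell in U251T, 8.6% rose and 4.64% had a lower difference. Among all genes tested the shares were 5.46%, 4.58% and 2.49%. Whether the microtubule list departed from them was not tested.

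Targets of p53 rose in U251T. Of 14 members, 10 rose in U251T and 9 had a called higher difference, and the log2 fold change was above 0 in 14 in U251T and in 3 in U251P. The medians were 0.945 in U251T and -0.071 in U251P. Of the 4048 genes 8.6% rose in U251T and 3.9% had a called higher difference, beside 4.58% and 1.8% of all genes tested. CDKN1A, the inhibitor of cyclin-dependent kinases (chr6:36676460-36687339, plus strand, GENCODE 29), went from 46.7, 32.3 and 20 CPM to 141, 130 and 169 CPM in U251T. It was at 13.2, 23.2 and 33.4 CPM in U251P vehicle and at 17.3, 19.8 and 32.8 CPM with carmofur. The U251T groups did not overlap, the U251P groups did, and the difference was 2.09 ± 0.37 (SE; adjusted p = 0.000299).

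SESN1, a sestrin that restrains mTORC1, was at 15.3, 13.1 and 15.7 CPM in U251T vehicle and at 78.7, 45.3 and 52.1 CPM with carmofur, a difference of 2.59 from a U251P effect of -0.54. The antiproliferative gene BTG2 had a difference of 1.86 and the cyclin CCNG1 one of 1.1. ZMAT3, an RNA-binding target of p53, was above 0 in both lines, with 0.31 in U251P (unadjusted p = 0.116) and 1.41 in U251T, and its difference of 1.1 was called (adjusted p = 0.0118).

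The medians of the ATF4 targets pointed in opposite directions in the lines. All 9 members had a log2 fold change below 0 in U251P, none of them called, and 6 of the 9 were above 0 in U251T, where 2 were called. The medians were -0.259 in U251P and 1.01 in U251T, and 53.9% of the 4048 genes were below 0 in U251P. In U251T 8.6% of the 4048 genes rose, beside 4.58% of all genes tested. With libraries left out in turn, the U251P effect ran from -0.63 to -0.04 for ATF3. It ran from -0.66 to -0.28 for VLDLR and from -2.51 to -0.45 for DDIT4. Whether single libraries set the common sign of the 9 genes in U251P was not tested. ATF3, a transcription factor of the stress response, was at 32.9, 19.5 and 32.8 CPM in U251T vehicle and at 99.4, 108 and 117 CPM with carmofur, with overlapping U251P groups at 4.92 to 12.4 CPM. Its difference was 2.31 ± 0.40 (SE; adjusted p = 0.000183).

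The enzymes that charge tRNAs, which ATF4 also controls in part, had log2 fold changes below 0 in most cases in both lines, nearly all of them uncalled. Of 13 aminoacyl-tRNA synthetases, 12 were below 0 in U251P, where 0 were called, and 12 in U251T, where 1 was called, with 11 of the same sign in both, medians of -0.169 and -0.275, and 0 called differences. Over the 4048 genes 29.5% were below 0 in both lines, and 18.7% were called in U251T, beside 10% of all genes tested. GARS1, the glycine enzyme, was the gene called in U251T and is described with the shared genes.

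**Figure D3:**
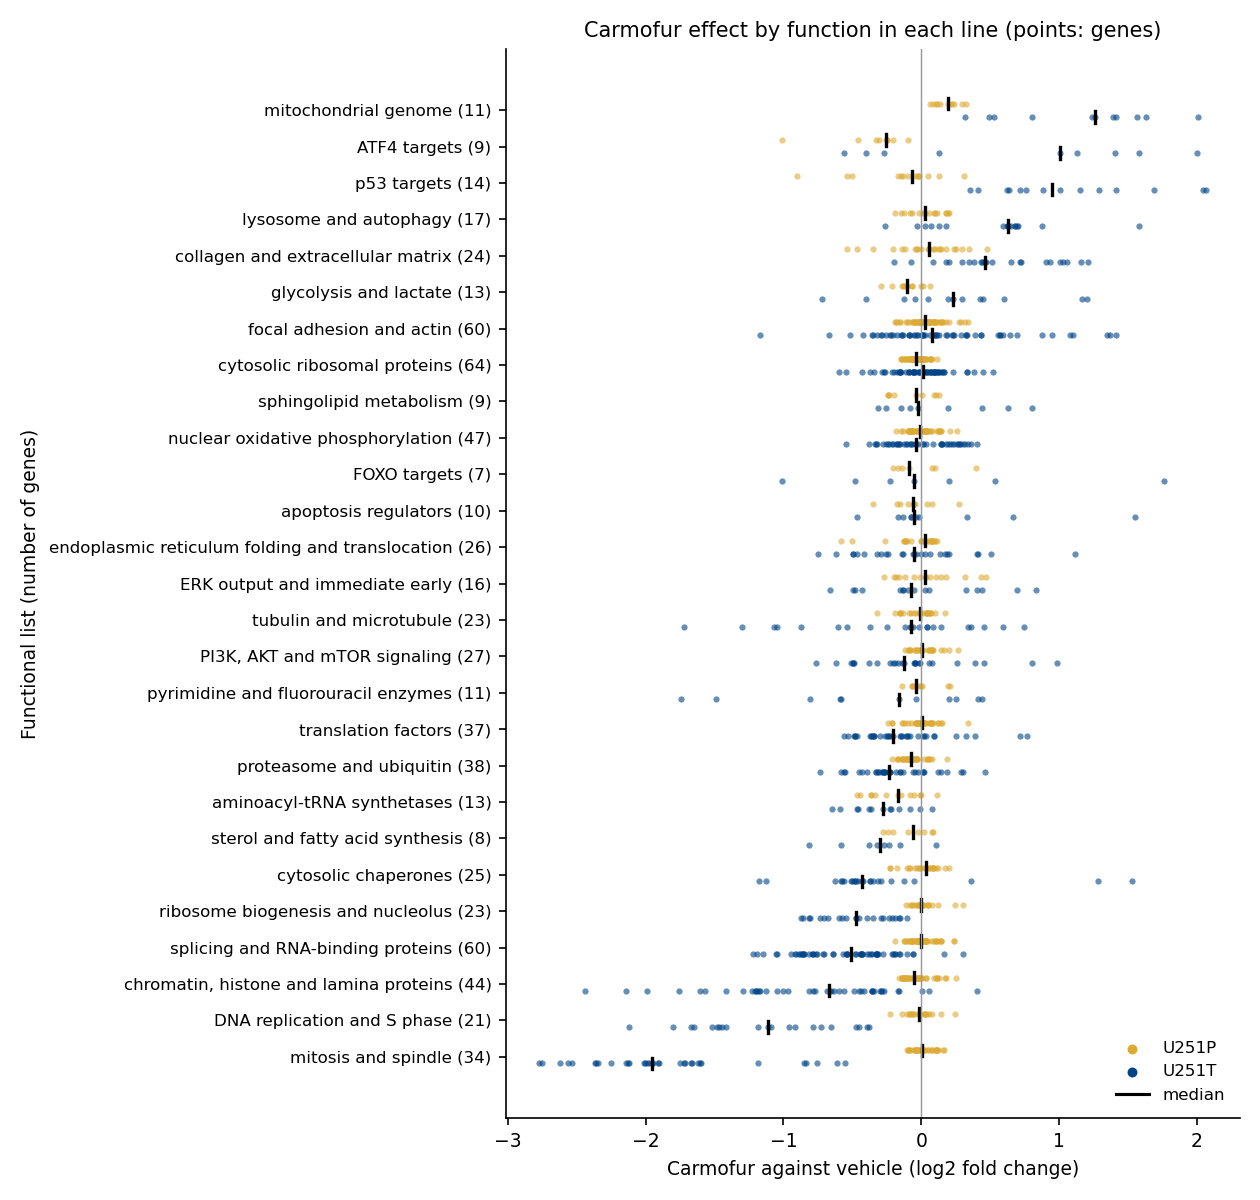
Carmofur log2 fold changes in U251P (yellow) and U251T (blue) for each gene of 27 functional lists, ordered by the U251T median, with black bars for medians. U251P medians stay near 0 in every list, from -0.259 for ATF4 targets to 0.191 for the mitochondrial genome, while U251T medians run from -1.95 for mitosis to 1.26 for the mitochondrial genome.

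The genes with the smallest p for a higher difference were of mixed function. CELSR2, a cadherin of planar cell polarity, was at 15.3, 4.13 and 18.5 CPM in U251T vehicle and at 91.9, 63.9 and 106 CPM with carmofur, with 17.4 to 22 CPM in U251P. Its difference was 2.94 ± 0.41 (SE; adjusted p = 6.27e-06), and its second U251T vehicle library was the lowest of the 12. RETREG1, a receptor for autophagy of the endoplasmic reticulum, went from 110, 80.3 and 91.3 CPM to 404, 371 and 295 CPM in U251T and was at 4.58 to 7.87 CPM in U251P, with a difference of 2.45.

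COL8A1, a short-chain collagen, was at 84, 94.5 and 89.8 CPM and then at 290, 241 and 241 CPM in U251T, with overlapping U251P groups at 149 to 191 CPM and a difference of 1.6. ABHD4, a lipase of N-acyl phospholipids, had a difference of 2.76, the aldehyde dehydrogenase ALDH9A1 one of 1.8, the guanine exchange factor ARHGEF4 one of 1.89, TMTC3 one of 1.46, the scaffold TANC1 one of 1.7 and the growth factor NRG1 one of 1.52.

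Part of the matrix genes and a smaller part of the adhesion and actin genes rose in U251T. Of 24 matrix genes, 10 rose in U251T and 5 had a called higher difference, with medians of 0.464 in U251T and 0.053 in U251P. These shares were 8.6% and 3.9% over the 4048 genes, and 4.58% and 1.8% over all genes tested. SPARC, a collagen-binding matrix protein, was at 363, 354 and 394 CPM in U251T vehicle and at 803, 854 and 639 CPM with carmofur, with overlapping groups in U251P and a difference of 1.09. CCN2, a matricellular growth factor, had a difference of 1.07 and the fibrillar collagen COL5A2 one of 1.03. Summed over 4 fibroblast markers the level was 1300 to 1610 CPM of the total in U251T vehicle and 1920 to 1960 with carmofur, nearly all of it COL1A1, with LUM at 0 in every library, and its part in the rise of matrix genes was not tested. In bulk RNA, a change in the number of cells of a kind and a change of RNA per cell cannot be told apart.

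In the 60 focal adhesion and actin genes, 12 rose and 3 fell in U251T, and 6 had a higher and 1 a lower difference. The median log2 fold change was 0.081 in U251T and 0.03 in U251P, and 36 of the 60 were above 0 in each line. Over the 4048 genes 8.6% rose in U251T and 3.9% had a called higher difference, beside 4.58% and 1.8% of all genes tested. The integrin subunit ITGAV went from 25.6, 29.3 and 41.4 CPM to 78.7, 76.3 and 78.2 CPM in U251T with 149 to 195 CPM in U251P, a difference of 1.39. The difference was 1.1 for the integrin ITGB8, 0.79 for talin TLN1, which links integrins to actin, and 1.08 for the actin cross-linker LIMA1. The formin DIAPH3 was the 1 gene of the list with a lower difference, at -1.23. Outside the list, the smooth muscle actin-binding gene SMTN had a difference of 1.6 and the cadherin FAT1 one of 1.18, and both were above 0 in both lines, with 0.27 and 0.29 in U251P.

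Signaling and related lists held at most 2 called differences each. Over the 4048 genes 8.55% had a called difference, and over all genes tested 4.28%. Whether any of these lists departed from those shares was not tested. Of 27 genes of PI3K, AKT and mTOR signaling, 2 rose and 2 fell in U251T and 2 had a called difference, GSK3B at 0.92 and the regulatory subunit PIK3R1 at 0.9. Of 16 genes of ERK output, 2 rose in U251T, and the differences called were DUSP6, a phosphatase of ERK, at 0.96 and KLF6 at -0.93. Of 9 genes of sphingolipid metabolism, 2 rose in U251T and 0 had a called difference; SPTLC1, a subunit of the first enzyme of the pathway, rose by 0.63 on the log2 scale (adjusted p = 0.0391) and SGPP1, a phosphatase of sphingosine-1-phosphate, by 0.8 (adjusted p = 0.019). The list of 10 apoptosis regulators held 1 called difference, that of the mitophagy receptor BNIP3L at 1.9, and the 7 FOXO targets held TXNIP, an inhibitor of thioredoxin, at 1.93.

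Of 17 lysosome and autophagy genes, 6 rose in U251T and 2 had a called difference, the proton pump subunit ATP6V1H at 1.38 and the autophagosome protein GABARAP at 0.89. Of 13 glycolysis genes, 2 rose and 1 fell, with differences of 1.29 for the glucose transporter SLC2A1 and 1.3 for PFKFB3. Of 25 cytosolic chaperones, 2 rose and 8 fell, with differences of 1.76 for DNAJB4 and 1.11 for HSPA4L against -1.15 for PTGES3 and -1.25 for FKBP4. The chaperone median was -0.431 in U251T, where 22 of the 25 were below 0, and 0.033 in U251P. Of 26 genes of folding in the endoplasmic reticulum, 2 rose and 2 fell, with a called difference of 1.05 for EDEM1. Of 8 lipid synthesis genes the citrate lyase ACLY alone had one, at -0.9. Over the 4048 genes 8.55% had a called difference, and 8.6% rose and 10.1% fell in U251T. Over all genes tested these shares were 4.28%, 4.58% and 5.46%. Whether the lists of this paragraph departed from them was not tested.

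Among the 11 genes of the mitochondrial genome all 11 were above 0 in both lines, with medians of 0.191 in U251P and 1.26 in U251T. In U251T 7 rose, and 0 differences were called. Of the 4048 genes 8.6% rose in U251T and 8.55% had a called difference, beside 4.58% and 4.28% of all genes tested. In U251T the ribosomal RNA gene MT-RNR1 was at 223, 49.1 and 158 CPM in vehicle and at 246, 325 and 1160 CPM with carmofur, where the third library, the shallowest, lay above the others. Its U251P level was 48800 to 85000 CPM. Its difference of 1.77 missed the threshold (adjusted p = 0.0518) and was called under 15 of the 23 alternatives, and it ran from 0.81 without the third U251T carmofur library to 2.33 without the first U251T vehicle library. MT-ND4, a subunit of complex I, had a difference of 1.34 (adjusted p = 0.131), called under 6 of the 23 alternatives, which ran from 0.70 without the second U251T vehicle library to 2.55 without the first. Over the alternatives the adjusted p ran from 1.92e-23 to 0.55 for MT-RNR1 and from 7.94e-08 to 0.582 for MT-ND4.

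No difference was called in the lists of ribosomal proteins, translation factors, ribosome biogenesis, proteasome and oxidative phosphorylation. Of 64 cytosolic ribosomal protein genes 1 rose in U251T, of 47 genes of oxidative phosphorylation 0 were called, and of 37 translation factors 1 rose and 1 fell. In 23 genes of ribosome biogenesis 7 fell in U251T, with a median of -0.472, and 3 of 38 proteasome genes fell and 1 rose. Of the 4048 genes 10.1% fell in U251T, 8.6% rose and 8.55% had a called difference. For all genes tested the shares were 5.46%, 4.58% and 4.28%. Whether these lists departed from them was not tested. RPL22L1, a paralog of a ribosomal protein that was in no list, had a difference of -2.47.

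Few genes changed in the same direction in both lines past the thresholds set. The effect averaged over both lines was called for 397 of the 4048 genes, beside 4.8% of all genes tested, but 260 of the 397 also had a called difference between the lines. A stricter rule asked for a called average, the same sign in both lines and an unadjusted p under 0.05 in each line, and 14 genes (0.346%) met it, beside 0.214% of all genes tested. In 8 of them the level rose and in 6 it fell. In U251P 65 of the 4048 genes (1.61%) had an unadjusted p under 0.05, a share below 0.05 itself, and none was called. The U251P side of each of the 14 genes thus rests on an unadjusted p. How many genes would meet the rule if the effects in the 2 lines were unrelated was not tested.

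PRICKLE2, a protein of planar cell polarity, was at 5.32, 4.24 and 5.11 CPM in U251P vehicle and at 7.8, 10.2 and 6.24 CPM with carmofur. In U251T it was at 126, 116 and 88.4 CPM and at 232, 196 and 243 CPM. The groups did not overlap in either line, and the averaged effect was 0.85 ± 0.16 (SE) on the log2 scale (adjusted p = 0.00044). PORCN, which lipidates Wnt ligands, was at 25.7 to 33.9 CPM in U251P vehicle and at 35.3 to 46.3 CPM with carmofur, and at 57.7 to 62.7 CPM and 95.9 to 137 CPM in U251T.

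Other raised genes act on the cell's shape or surroundings. THBS1, a matricellular glycoprotein that binds integrins and CD47, was at 259, 228 and 220 CPM in U251P vehicle and at 317, 409 and 256 CPM with carmofur, so that the groups overlapped, and at 254 to 271 CPM and 339 to 497 CPM in U251T, without overlap. NEXN, an actin-binding protein, had log2 fold changes of 0.48 in U251P and 1.09 in U251T, and NAV3, a microtubule-binding protein, 0.53 and 0.77. The averaged effects were 0.6 for THBS1, 0.79 for NEXN and 0.65 for NAV3. The other raised genes were the transcription factor PROX1 with an average of 0.69, the Rac-inactivating protein CHN2 with 0.64 and DBT, an enzyme subunit of branched-chain amino acid breakdown, with 0.57.

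The lowered genes included both tRNA synthetases GARS1 and NARS1. GARS1 was at 359, 486 and 429 CPM in U251P vehicle and at 316, 240 and 379 CPM with carmofur, and at 120, 152 and 113 CPM and then at 80.6, 91.4 and 73.8 CPM in U251T. The U251T groups did not overlap and the U251P groups did, with an averaged effect of -0.55 ± 0.13 (SE; adjusted p = 0.008). NARS1, the asparagine enzyme, averaged -0.37. The transcription factor ELF2 averaged -0.55 with no overlap in either line, the coactivator NCOA7 averaged -0.42, the zinc finger protein ZNF518A -0.51 and the neuronal membrane protein SLITRK5 -0.75.

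None of these 14 genes had a called difference between the lines, which does not show equal effects. In U251T taken alone, CHN2, NCOA7, SLITRK5, ZNF518A, DBT and NARS1 were not called, and with the replicate number as a block the adjusted p in U251T was 0.0874 for CHN2, 0.0129 for NCOA7, 0.0448 for SLITRK5, 0.0827 for ZNF518A, 0.104 for DBT and 0.0128 for NARS1. Without the second U251P carmofur library 5 genes met the rule, without the first U251T vehicle library 8 and without the first U251T carmofur library 6, and without the third U251P carmofur library 30.

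**Figure D4:**
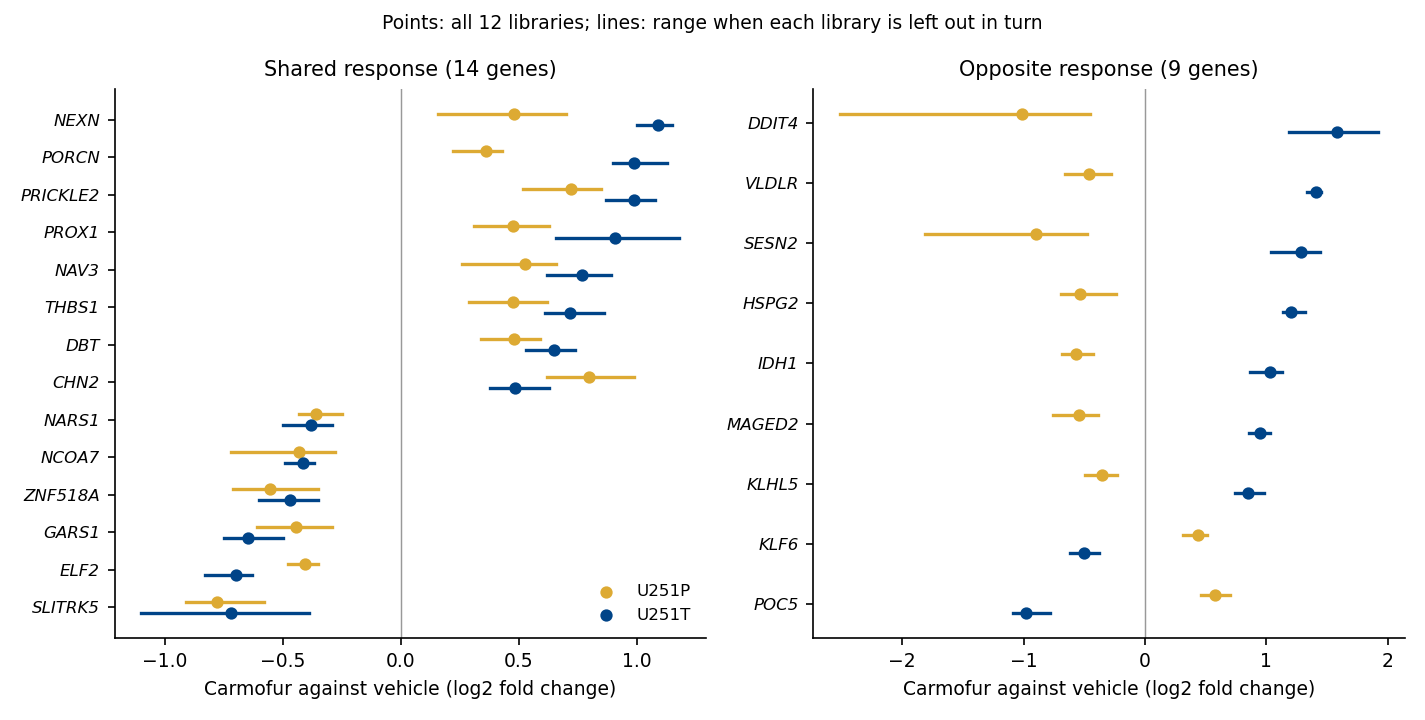
Carmofur log2 fold changes in U251P (yellow) and U251T (blue) for the 14 genes of shared and the 9 genes of opposite response, with points from all 12 libraries and lines for the range when each library is left out in turn. No line crosses 0, and the widest is that of DDIT4 in U251P, from -2.51 to -0.45. The genes were chosen by an unadjusted p under 0.05 in each line of these same libraries, so that lines away from 0 are no separate evidence.

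An opposite response asked for a called difference, opposite signs and an unadjusted p under 0.05 in each line, and 9 genes (0.222%) met it, beside 0.168% of all genes tested. In 7 the level was lower with carmofur in U251P and higher in U251T, and in 2 the reverse. The signs are fixed by the rule and are given as a description. How many genes would meet this rule with unrelated effects in the 2 lines was not tested either.

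VLDLR, a receptor for reelin and lipoproteins and a target of ATF4, was at 36.4, 59 and 51.7 CPM in U251P vehicle and at 35.1, 26.4 and 45.6 CPM with carmofur. In U251T it was at 49.6, 52.1 and 54.2 CPM and then at 148, 129 and 135 CPM. The U251P groups overlapped and the U251T groups did not, with log2 fold changes of -0.46 and 1.41 and a difference of 1.87 ± 0.28 (SE; adjusted p = 2.21e-05). It was the 1 gene of the 9 whose difference was called under all 23 alternatives.

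SESN2 and DDIT4, both restrainers of mTORC1 that stress induces, had the widest spread in U251P. SESN2 was at 27.7, 133 and 102 CPM in U251P vehicle and at 26.1, 23.3 and 94.1 CPM with carmofur, and DDIT4 at 75.5, 519 and 345 CPM and at 57, 52.1 and 360 CPM. For both genes the first libraries were low and the third ones high in both treatments, and the second library alone differed. The U251P log2 fold change was -0.90 for SESN2 and -1.01 for DDIT4; it was -0.48 and -0.45 without the second U251P vehicle library, and -1.81 and -2.51 without the third U251P carmofur library. In U251T, DDIT4 went from 43.1, 19.1 and 34.2 CPM to 73.1, 104 and 95.6 CPM, without overlap, with an adjusted p of 0.102, and of 0.0004 with the replicate number as a block. The differences were 2.19 for SESN2 (adjusted p = 0.00905) and 2.6 ± 0.75 for DDIT4 (SE; adjusted p = 0.0399), and that of DDIT4 was called under 11 of the 23 alternatives.

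IDH1, the cytosolic isocitrate dehydrogenase, was at 24.9, 35.2 and 27.9 CPM in U251P vehicle and at 16.8, 21.5 and 20.6 CPM with carmofur, and at 18.3, 16.5 and 22.8 CPM and then at 44.1, 32.8 and 34.8 CPM in U251T. It was the 1 gene of the 7 whose groups did not overlap in either line, with a difference of 1.6. HSPG2, which encodes the basement membrane proteoglycan perlecan, had log2 fold changes of -0.54 and 1.21, the melanoma antigen family gene MAGED2 -0.54 and 0.95, and KLHL5, a kelch protein, -0.35 and 0.85.

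The reverse pattern was seen in POC5, a centriole protein, and KLF6, a growth-restraining transcription factor. POC5 was at 7.87, 9.46 and 6.6 CPM in U251P vehicle and at 11.9, 11.7 and 11.7 CPM with carmofur, and at 51.1, 66 and 42.8 CPM and then at 29.1, 30.2 and 21.7 CPM in U251T. KLF6 went from 33.6 to 36.9 CPM up to 41.9 to 54.4 CPM in U251P and from 144 to 187 CPM down to 86.9 to 130 CPM in U251T. Neither gene's groups overlapped in either line, and the differences were -1.56 and -0.93. For KLF6 the U251T effect had an adjusted p of 0.0674, and of 0.0109 with the block. The count of opposite genes depended on single libraries: it was 3 without the second U251P carmofur library, 4 without the first, 5 without the third U251P vehicle library, 14 without the first U251P vehicle library and 22 without the third U251P carmofur library.

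**Figure D5:**
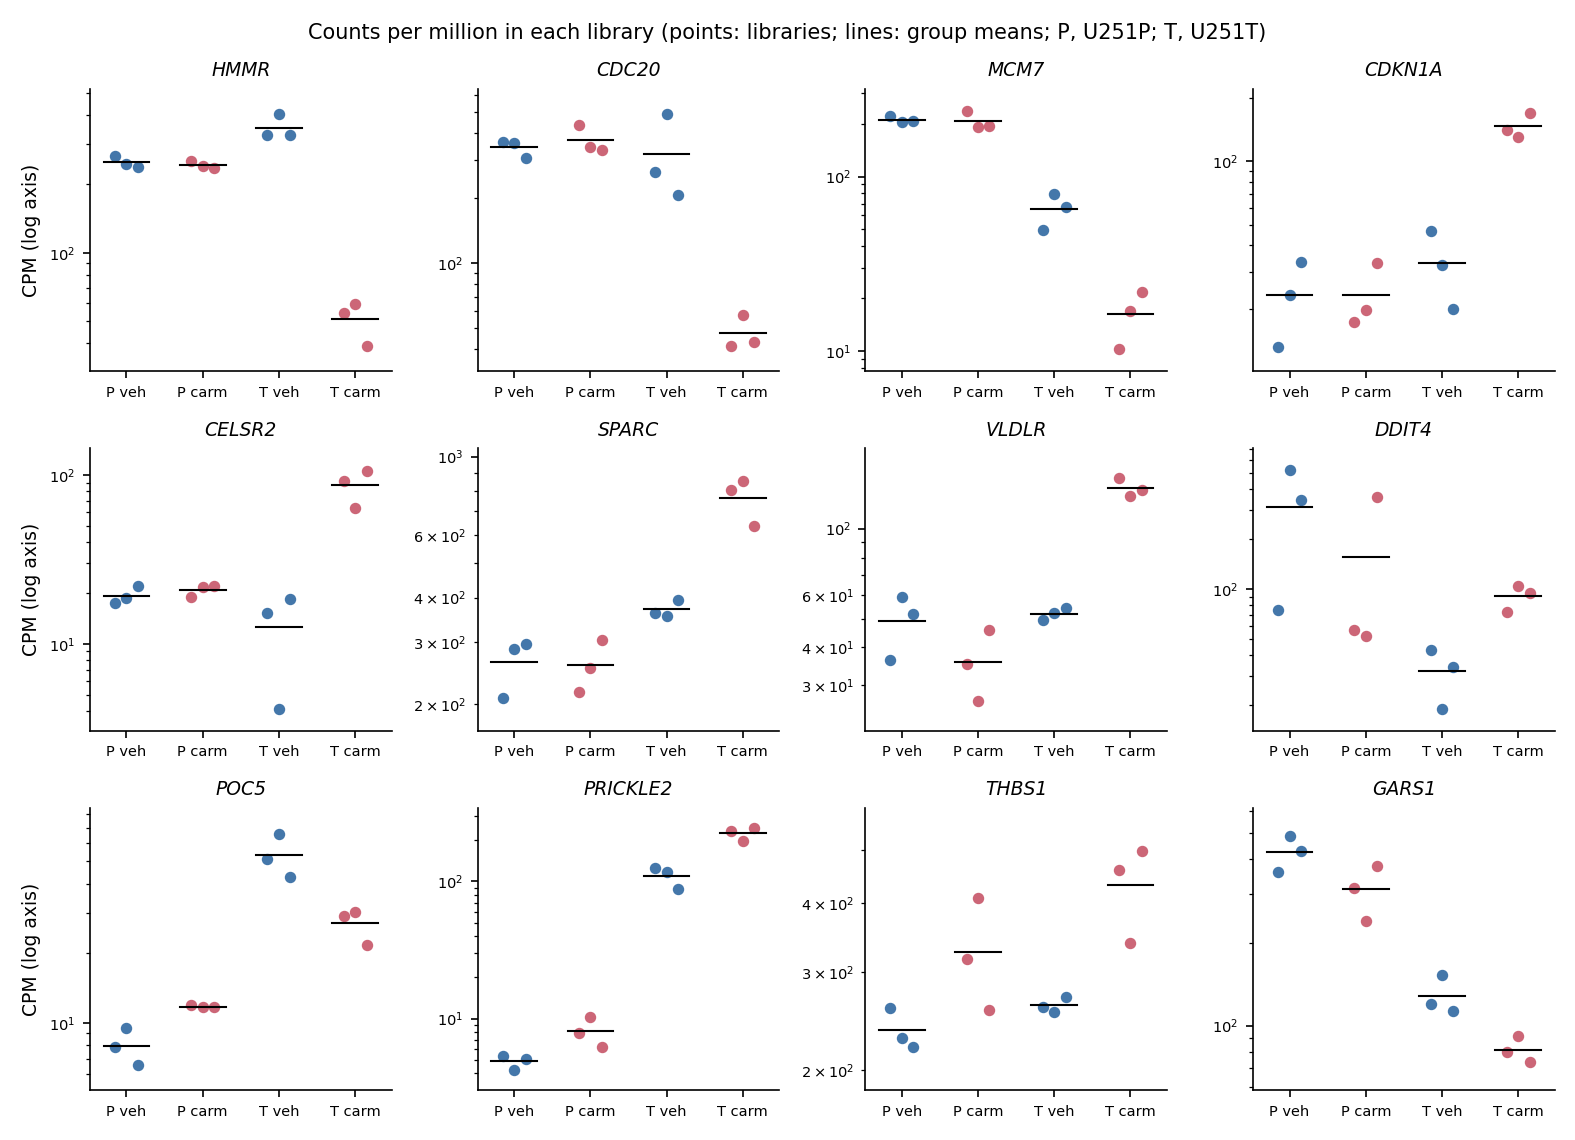
CPM on a log axis in each library for 12 genes, with points for libraries and lines for group means. HMMR, CDC20 and MCM7 drop in treated U251T libraries alone, CDKN1A, CELSR2 and SPARC rise there alone, VLDLR, DDIT4 and POC5 have group means that move in opposite directions in the lines, and PRICKLE2, THBS1 and GARS1 have group means that move the same way in both.

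Genes outside the 4048 that could be tested, 9022 in all, had a called difference in 214 cases (2.37%). Of 102 genes named in the text, 29 overlap another annotated gene on the same strand and 67 one on the opposite strand, and 19 have pseudogenes named after them. Among the overlaps are BUB1B with the readthrough gene BUB1B-PAK6, HELLS with TBC1D12 and DNAJB4 with GIPC2, and no source used here says if reads were counted by strand.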

How the data were processed

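RNA from 12 samples was made into libraries with the QuantSeq 3′ FWD kit, sequenced as single-end reads, and trimmed and mapped by the authors with the BlueBee pipeline to hg38, as the labels name the build. The counting tool and its use of strand are not given in the sources used here. The deposited values are the authors' raw counts per Ensembl gene identifier, with no normalization. Replicates were not pooled.

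All 12 libraries were fitted together with 4 group means in edgeR 4.0.16 (R 4.3.3) and compared by its quasi-likelihood test, with TMM factors, the filterByExpr filter and two-sided p-values adjusted by Benjamini-Hochberg over 13070 genes, called under 0.05. CPM are scaled by TMM, except marker levels, which are per library total. Tested on simulated counts for the interaction, the fit recovered 90.5% of 200 genes changed by 1.5 on the log2 scale, with 7 false calls among 188 over 12646 genes, and 14.5% of 200 changed by 0.75. Positions are from GENCODE 29 (GRCh38). DESeq2 1.42.0, limma 3.58.1, other scalings and filters, equal depth, replicate blocks and leaving out each library were alternatives. Python 3.11.15, pandas 2.3.3 and matplotlib 3.10.9 gave tables and plots.

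Genes named were the 12 with the smallest interaction p in each direction, the 10 with the smallest p of the averaged effect and the same sign, those of the shared and opposite rules, members of 28 functional lists past the threshold, and the drug's targets, except where stated. The genes described and the lists were chosen with earlier results of these data known. Same-numbered vehicle and carmofur libraries were compared by the correlation of their deviations from group means over the 4048 genes. For numbers 1, 2 and 3 it was 0.161, 0.462 and 0.202 in U251T and 0.324, 0.036 and 0.406 in U251P. Between libraries of different numbers it ran from -0.317 to 0.131 in U251T and from -0.385 to 0.090 in U251P. All same-numbered values thus lay above those of the other pairs of their line, except that of number 2 in U251P. Whether the numbers mark pairs was not tested in either line. Counts of same-group libraries were further apart than counting noise gives, with chi-square per degree of freedom of 1.80 to 24.2.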

Additional observations from a re-analysis of the deposited data

Results flagged for a closer look

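The carmofur effect differed between the lines past an adjusted p of 0.05, by edgeR's test of the interaction, in 80 of the 102 genes named. Each value is the U251T effect minus the U251P effect on the log2 scale, and the libraries labeled U251T stand apart as described.

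Among the 37 lower differences, the mitotic genes gave -2.89 for CDC20, -2.74 for PLK1, -2.71 for HMMR, -2.62 for BUB1B, -2.52 for CCNA2, -2.46 for ASPM, -2.42 for NUF2, -2.32 for CENPF, -2.31 for ECT2, -2.11 for CENPE, -2.07 for KNL1 and -1.89 for TOP2A. Replication and nucleotide genes gave -2.09 for MCM7, -1.95 for SHMT1, -1.78 for ATAD2, -1.6 for NASP, -1.56 for HELLS and -1.42 for DUT. Chromatin, ribosomal and RNA-binding genes gave -2.47 for RPL22L1, -2.44 for HMGB2, -2.01 for LMNB1, -1.93 for H2AZ1, -1.86 for TMPO, -1.36 for SNRPF, -1.25 for SRSF2, -1.07 for HNRNPA0 and -1.06 for HNRNPA2B1. Cytoskeleton, chaperone and other genes gave -1.57 for STMN1, -1.56 for POC5, -1.4 for TUBA1C, -1.25 for FKBP4, -1.23 for DIAPH3, -1.15 for PTGES3, -1.12 for TUBA1B, -1.09 for TUBB, -0.93 for KLF6 and -0.90 for ACLY.

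Among the 43 higher differences, targets of p53 and ATF4 gave 2.6 for DDIT4, 2.59 for SESN1, 2.31 for ATF3, 2.19 for SESN2, 2.09 for CDKN1A, 1.87 for VLDLR, 1.86 for BTG2, 1.1 for CCNG1 and 1.1 for ZMAT3. Matrix, adhesion and actin genes gave 2.94 for CELSR2, 1.74 for HSPG2, 1.6 for COL8A1, 1.6 for SMTN, 1.39 for ITGAV, 1.18 for FAT1, 1.1 for ITGB8, 1.09 for SPARC, 1.08 for LIMA1, 1.07 for CCN2, 1.03 for COL5A2 and 0.79 for TLN1. Metabolic, lysosomal and stress genes gave 2.76 for ABHD4, 2.45 for RETREG1, 1.93 for TXNIP, 1.9 for BNIP3L, 1.8 for ALDH9A1, 1.76 for DNAJB4, 1.6 for IDH1, 1.38 for ATP6V1H, 1.3 for PFKFB3, 1.29 for SLC2A1, 1.11 for HSPA4L, 1.05 for EDEM1 and 0.89 for GABARAP. Signaling and other genes gave 1.89 for ARHGEF4, 1.7 for TANC1, 1.52 for NRG1, 1.49 for MAGED2, 1.46 for TMTC3, 1.2 for KLHL5, 0.96 for DUSP6, 0.92 for GSK3B and 0.90 for PIK3R1. Groups of 3 libraries were not tested for single libraries that stand apart.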

How the results depend on the processing

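Counts are of the 4048 genes. The main counts were 346 for the difference between the lines, 0 for U251P, 758 for U251T, 397 for the average, 14 shared and 9 opposite. The difference count was 555 with DESeq2, 589 when only these genes were fitted and 217 at one depth of 383633 counts per library; the average was 608, 635 and 259 in the same order. U251T gave 444 with limma voom. With no filter on low counts U251P gave 2, shared 28 and opposite 15; with library totals opposite was 16; with only these genes fitted shared was 26. At the depth of 383633 counts, 179 of the 346 differences were kept, with 5 of the 14 shared and 2 of the 9 opposite genes. Protein-coding genes alone, an alternative chosen after seeing the data, left the counts for the difference, U251T, the average, shared and opposite within 1.5 times; it was not run for U251P. With the replicate number as a block within each line the counts were 803, 2, 1282, 842, 71 and 38 in the order above. All 346 differences were kept. In U251P the likeness of same-numbered libraries was uneven, with a correlation of 0.036 for the second number. With the number as a block shared by the lines U251P gave 1, shared 28 and opposite 14. Leaving out each library in turn gave 233 to 461 differences, 0 to 3 in U251P (3 without the third U251P carmofur library), 543 to 936 in U251T, 266 to 513 for the average, 5 to 30 shared and 3 to 22 opposite. No called gene named in the text reversed under these alternatives; 51 of 94 kept their call in all of them. The cause of these changes was not tested. Depth in U251T limits what can be seen there.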
